A study of Mus musculus with 2 samples.

Results

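Gsdmc-high epithelial cells are sorted intestinal cells that carried transcripts of the gasdermin genes Gsdmc2 or Gsdmc4 and lay under limits set on enterocyte, goblet, Paneth and mitosis genes. They numbered 212 of the 12554 cells that passed a common filter in the 2 libraries, 150 of 7401 from wild type (WT) mice and 62 of 5153 from mice with an MG53 transgene (MG53-TG). The filter asked of a cell a minimum depth in unique molecular identifiers (UMIs, the count of captured transcript molecules), 200 detected genes, and no more than 25% of UMIs from mitochondrial genes; the shallowest member held 5243 UMIs in WT and 5613 in MG53-TG. A member had at least 3 UMIs of Gsdmc2 and Gsdmc4 together. It had under 0.5% of its UMIs from Fabp1, under 0.5% from Apoa4 and Apoc3, and under 0.1% from Fabp6, all genes of enterocytes. It also had under 0.5% from the goblet genes Muc2, Fcgbp, Clca1, Zg16 and Tff3, under 5% from the Paneth genes of the Defa family and Lyz1, and fewer than 5 of 8 mitosis genes detected (Mki67, Top2a, Birc5, Ube2c, Nusap1, Cenpf, Ccnb2 and Cdk1). Measured values therefore chose the members, and the levels of these genes in them are given only as a description.

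Both groups of mice were given 2.5% DSS (dextran sulfate sodium), which damages the intestinal epithelium, and cells were taken on day 7. MG53 is the muscle membrane repair protein encoded by Trim72; MG53-TG mice carry extra copies of it expressed body-wide, and the WT mice were their littermates. Crypts of the intestine were dissociated, and live EpCAM+ cells that excluded the dye 7-AAD were captured with the 10x Genomics 3′ kit, version 3, as 1 library per genotype. The legend of the study calls the sorted cells CD45- as well and gives an n above 1 per group without relating it to the libraries, the labels give neither the number of mice in a library nor their age or the gut segment, and genotype coincides with library, program version and barcode filtering. With 1 library per genotype there is no replicate check and no test. Every interval is a 95% interval that covers counting error only. The median member held 19464 UMIs and 3760 genes in WT and 22977 UMIs and 4252 genes in MG53-TG, and no barcode of a member occurred in both libraries. Levels are given as CPM, the UMIs of a gene per 1000000 UMIs of all the cells of a set. Trim72 was at 1.57 CPM in the WT members (5 UMIs) and at 36.7 CPM in the MG53-TG members (55 UMIs), so the transgene's gene followed the labels.

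Gasdermins are proteins whose amino-terminal part, once a protease has cut the linker that holds it in check, inserts into membranes and forms pores. The mouse has several gasdermin C genes in a row, and these are expressed in the gut epithelium, where they are known to be raised by type 2 cytokines acting through Stat6 during worm infection. In the crypt, stem cells give rise to rapidly dividing progenitors, which stop dividing and take on absorptive or secretory features while they move toward the villus.

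The genes that chose the members are near copies of each other, which limits how well 3′ reads separate them. In the GRCm38 (mm10) annotation all lie on the minus strand of chromosome 15, Gsdmc2 from 63824346 to 63845177, Gsdmc3 from 63857724 to 63878558 and Gsdmc4 from 63891264 to 63912297, beside Gsdmc from 63775968 to 63808759. The coding sequences of Gsdmc2, Gsdmc3 and Gsdmc4 are each 1440 bases long, and Gsdmc2 and Gsdmc3 are identical at 97.1% of aligned positions against 93.0% for either with Gsdmc4. Over all 3 genes, 92.4% of 1434 coding positions aligned without a gap hold the same base. Within 1 exon, the 60 bases where they differ most are shown, 5′ to 3′ along the transcript, with capitals at the 15 positions that are not the same in all of them.
Gsdmc2: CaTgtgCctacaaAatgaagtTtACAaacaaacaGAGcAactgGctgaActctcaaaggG
Gsdmc3: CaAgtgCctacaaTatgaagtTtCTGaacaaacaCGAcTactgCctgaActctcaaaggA
Gsdmc4: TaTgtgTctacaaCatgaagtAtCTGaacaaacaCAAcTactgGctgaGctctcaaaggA
They lie at chr15:63826868-63826927 in exon 9 of 12 of Gsdmc2, chr15:63860298-63860357 in exon 10 of 13 of Gsdmc3 and chr15:63893815-63893874 in exon 9 of 12 of Gsdmc4. In the last 500 transcript bases, where a 3′ library reads, 30.7% of all 90-base stretches of Gsdmc2 and 18.0% of those of Gsdmc3 were also present in another gene of the family, against 0% for Gsdmc4. How the authors' counting treated reads that match several genes is not stated, so the split between Gsdmc2 and Gsdmc3 is less certain than the level of Gsdmc4.

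Members carried from 3 to 40 UMIs of Gsdmc2 and Gsdmc4 in WT and from 3 to 62 in MG53-TG, with a median of 6 in both. Just inside the threshold, 36 WT and 16 MG53-TG members had exactly 3 UMIs. Just outside it, 53 WT and 10 MG53-TG cells that met every other limit had 2 UMIs. Per cell the level ran from 64.2 through a median of 346 to 1674 CPM in WT and from 58.3 through 338 to 1903 CPM in MG53-TG. At the upper end, 44 WT and 23 MG53-TG members had 10 UMIs or more. A cell needs depth to reach 3 UMIs. Cells within the same limits but with 0 UMIs of both genes are called counterparts here. Cells with at least 3 detected genes of the tuft, enteroendocrine or T cell list were left out of the counterparts but not of the members. Members were deeper than counterparts, whose medians were 11797 and 10356 UMIs.

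The family members kept near the same proportions in the members of both libraries. Gsdmc4 supplied 68.6% (66.0 to 71.2) of the UMIs of Gsdmc2, Gsdmc3 and Gsdmc4 in WT and 70.7% (67.3 to 73.9) in MG53-TG, followed by Gsdmc2 with 24.8% and 21.8%. Gsdmc3 was not used to choose the cells. It was at 26.7 CPM (21.3 to 33.0) in WT and 38.1 CPM (28.8 to 49.3) in MG53-TG members, against 2.5 to 4.0 CPM in cycling crypt and early absorptive cells and 0.52 and 0.20 CPM in counterparts. Gsdmc3 UMIs were found in 56 of 150 and 30 of 62 members. After every cell was thinned to the UMI minimum of the filter, 6 of 150 WT members had a Gsdmc3 UMI, 4% (1.482 to 8.503). In MG53-TG 3 of 62 did, 4.84% (1.009 to 13.496), which equals the limit that a count of 0 would allow. Cycling crypt cells had 0.903% (0.364 to 1.85) and 0.865% (0.179 to 2.51), and their intervals overlap those of the members. Early absorptive cells had 0.201% (0.0243 to 0.723) and 0.253% (0.0306 to 0.909). In WT, 0 of 269 tuft cells, which allows up to 1.12%, and 0.112% of T cells had one. In MG53-TG, 0.308% of tuft cells and 0 of 343 T cells, which allows up to 0.875%, had one. Tuft cells and T cells were sets with at least 3 detected genes of their lists, used here as a reference and chosen without regard to Gsdmc UMIs. At full depth Gsdmc3 had 2.28 and 1.31 CPM in tuft cells and 0.907 and 0.623 CPM in T cells, so these sets were not free of it. The median depths of tuft and T cells were 11718 and 2891 UMIs in WT and 15042 and 3496 in MG53-TG. The founding gene Gsdmc had 0 UMIs in members of both libraries.

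**Figure D1:**
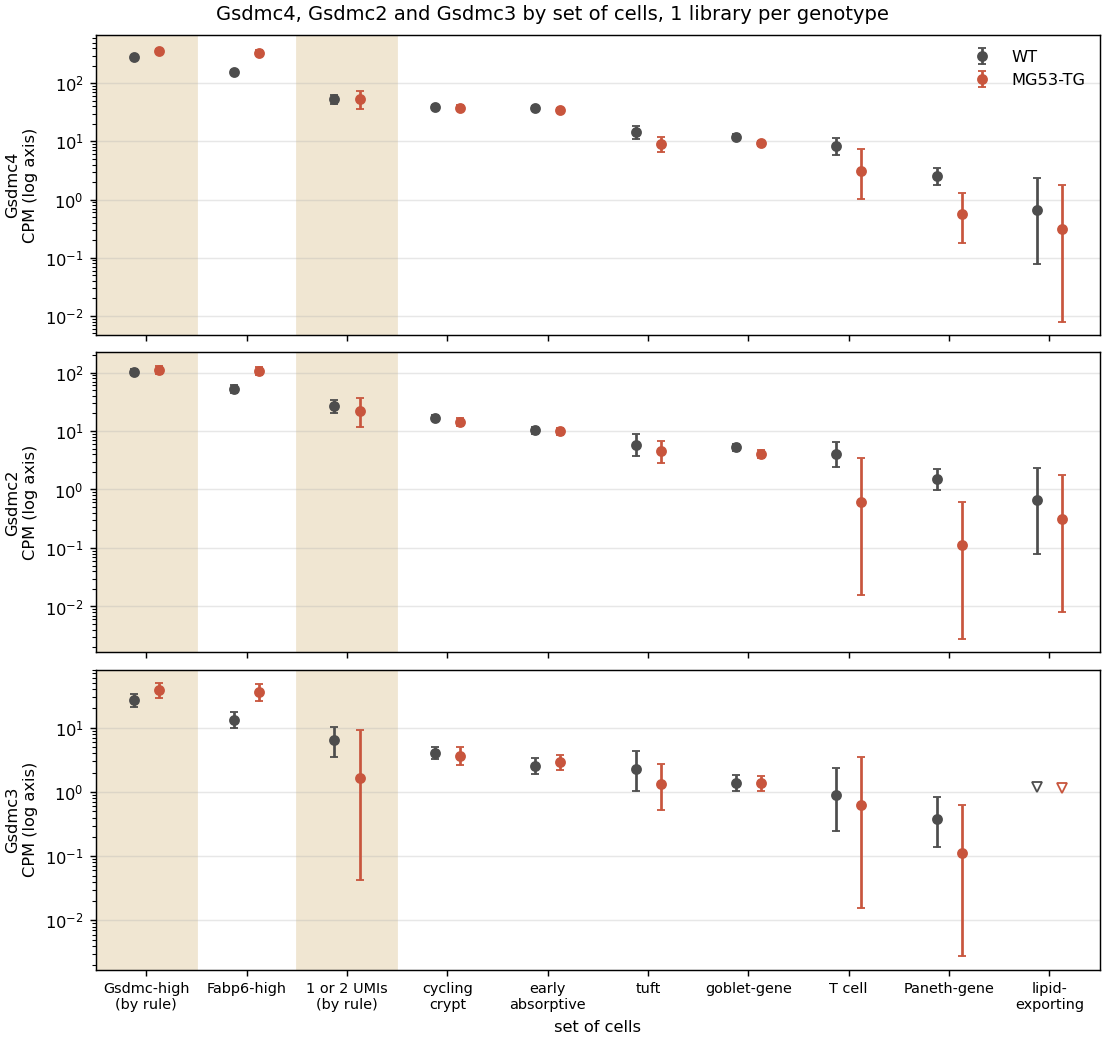
Gsdmc4, Gsdmc2 and Gsdmc3 in CPM (log axis, y) by set of cells (x), gray for WT and red for MG53-TG. Points are UMIs summed over the set's cells with exact 95% Poisson intervals. Open triangles are upper limits where no UMI was counted, and the shaded sets were chosen by Gsdmc UMIs. All 3 genes lie highest in the Gsdmc-high and Fabp6-high sets, and Gsdmc2 and Gsdmc4 are at most 2.53 CPM in Paneth-gene and lipid-exporting cells.

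Sets chosen without any Gsdmc gene show where UMIs of the family were counted. Summed over Gsdmc2 and Gsdmc4, cycling crypt cells (the same limits but at least 5 of the mitosis genes; 775 WT and 347 MG53-TG cells) had 56.7 and 51.8 CPM. Early absorptive cells (the same limits but at least 0.5% Fabp1; 997 and 792 cells) had 48.0 and 44.4 CPM. Cells with at least 0.1% of UMIs from Fabp6, the ileal bile acid binding protein, had 210 and 440 CPM, and cells with at least 0.5% from Apoa4 and Apoc3, apolipoproteins of lipid export, had 1.30 and 0.630 CPM. For reference, tuft cells had 20.3 and 13.5 CPM, cells over the goblet limit 17.2 and 13.4 CPM, and T cells 12.5 and 3.74 CPM. Members had 381 and 469 CPM by construction. The genes were thus measured in dividing, early and Fabp6-high cells of both libraries, and were near 0 in lipid-exporting cells.

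Among noncycling cells within the lineage limits, and without cells that had at least 3 tuft, enteroendocrine or T cell genes, Gsdmc transcripts were counted at every content of Fabp1, a fatty acid binding protein that rises as enterocytes mature. In WT the summed level of Gsdmc2 and Gsdmc4 was 93.7 CPM (86.1 to 102) below 0.05% Fabp1, between 76.5 and 91.7 CPM in the 4 bins from 0.05% to 1%, 41.3 CPM between 1% and 2%, and 34.2 CPM (29.3 to 39.8) at 2% or more. In MG53-TG it was 83.7 CPM (73.9 to 94.4) in the lowest bin, 37.7 CPM (26.2 to 52.4) between 0.05% and 0.1%, 175 CPM (151 to 200) between 0.1% and 0.2%, and 41.7 CPM (37.1 to 46.8) in the highest. In neither library did the level fall from bin to bin in a steady order, and in WT the 2 highest bins had the lowest levels. The share of cells with at least 3 UMIs also moves with depth. In WT, the share of cells with at least 3 Gsdmc2 and Gsdmc4 UMIs was 12.3% (9.46 to 15.6) below 0.05% Fabp1, 15.3% (11.1 to 20.2) between 0.2% and 0.5%, and 11% (7.22 to 15.8) at 2% or more. In MG53-TG it was 9.25% (5.82 to 13.8), 23.5% (15.5 to 33.1) and 10.3% (6.85 to 14.8) in the same bins, and 3.85% (0.80 to 10.8), or 3 of 78 cells, between 0.05% and 0.1%. Over the same bins Olfm4, a marker of crypt base cells, went from 1858 to 50.3 and 19.6 CPM in WT and from 3178 to 201 and 2 CPM in MG53-TG. Median depth was 12479 UMIs in the lowest bin and 20709 in the highest in WT. In MG53-TG it was 13061 and 25191 UMIs in the same bins, 8731 in the bin with a share of 3.85% and 17321 in that with 23.5%. The part of depth in the shares was not tested.

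**Figure D2:**
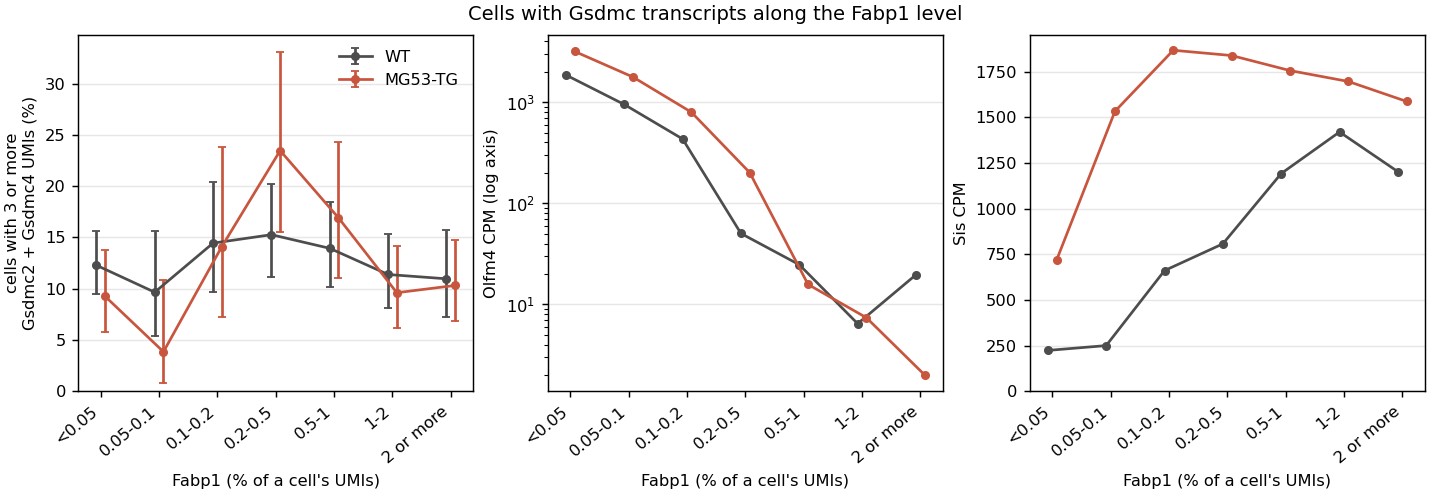
Share of cells with at least 3 Gsdmc2 and Gsdmc4 UMIs (left, percent with exact 95% binomial intervals), Olfm4 (middle, CPM, log axis) and Sis (right, CPM) in 7 bins of Fabp1 content (x, percent of a cell's UMIs), gray for WT and red for MG53-TG. Shares lie between 3.85% and 23.5% with no bin at 0, whereas Olfm4 goes from 1858 (WT) and 3178 CPM (MG53-TG) in the lowest bin to 19.6 and 2 CPM in the highest.

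Of the 3 marker genes, Gsdmc4 and Gsdmc2 were high in the members because the rule asked for them, and Dmbt1 did not set the members apart. Dmbt1, a secreted scavenger protein that binds bacteria, was at 2799 CPM in WT members and at 2142 CPM in MG53-TG members. Cycling crypt cells had more Dmbt1, with 3566 and 2958 CPM, and early absorptive cells had less, with 2424 and 1805 CPM. Counterparts lay, for Dmbt1, above the members in WT (3216 CPM) and below them in MG53-TG (1580 CPM). The epithelial genes were present in every member, with a summed level of 5821 to 28561 CPM for the 8 listed genes in WT and 5781 to 20766 CPM in MG53-TG. Markers of tuft and T cells were at 0 in most members, and those of goblet cells were not. The 8 tuft genes summed to 0 in 138 of 150 WT and 54 of 62 MG53-TG members, and the 8 T cell genes in 109 and 49. The 6 goblet genes outside the rule were at 0 in only 12 and 4 members, with medians per cell of 140 and 129 CPM. The 4 Paneth genes outside the rule were at 0 in 39 and 27 members (medians 59.9 and 30.3 CPM), and the 8 enteroendocrine genes in 57 and 34 (medians 42.3 and 0 CPM). The part of these transcripts in other results was not tested. At least 3 genes of the tuft, enteroendocrine or T cell list were detected in 12 WT and 4 MG53-TG members, mostly enteroendocrine genes in WT (8 cells).

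Most genes of absorptive function stood in the members between their level in cycling crypt cells and that in early absorptive cells. Of 22 listed enterocyte genes measured in all 3 sets, 22 rose in this order in both libraries, while 24.4% of all 2947 genes tested did. Sis, the sucrase-isomaltase of the brush border, went from 65.6 to 412 and 1223 CPM in WT and from 66.2 to 1047 and 1481 CPM in MG53-TG. Apoa1, an apolipoprotein, went from 326 to 786 and 6465 CPM in WT and from 305 to 1754 and 5966 CPM in MG53-TG. Krt20, a keratin of differentiated epithelium, went from 38.1 to 213 and 340 CPM in WT and from 31.9 to 281 and 348 CPM in MG53-TG. Since the sets were separated by Fabp1 and mitosis genes, an order of enterocyte genes is partly built into them.

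Genes of the crypt base and of DNA replication ran the other way. Of 9 DNA replication genes 9 fell in this order in both libraries, as did 4 of 5 stem cell genes, while 37% of all genes tested did. The first step of this order is partly built into the sets too, since the mitosis genes separate cycling crypt cells from members. Mcm3, a subunit of the replicative helicase, was not among these 9 genes. It went from 47.4 to 13.2 and 1.77 CPM in WT and from 61.7 to 34.0 and 2.03 CPM in MG53-TG. Olfm4 went from 931 to 99.4 and 14.8 CPM in WT and from 1477 to 367 and 6.29 CPM in MG53-TG. Slc12a2, an ion carrier of crypt cells, went from 264 to 39.2 and 16.4 CPM in WT and from 314 to 76.1 and 19.9 CPM in MG53-TG. Sox9, a factor of crypt progenitors, was the stem cell gene outside this order, with 34.5 CPM in WT members against 66.5 CPM in cycling crypt and 46.6 CPM in early absorptive cells. Lgr5, the receptor that marks crypt base stem cells, was at 0 UMIs in WT members and at 1.34 CPM in those of MG53-TG.

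**Figure D3:**
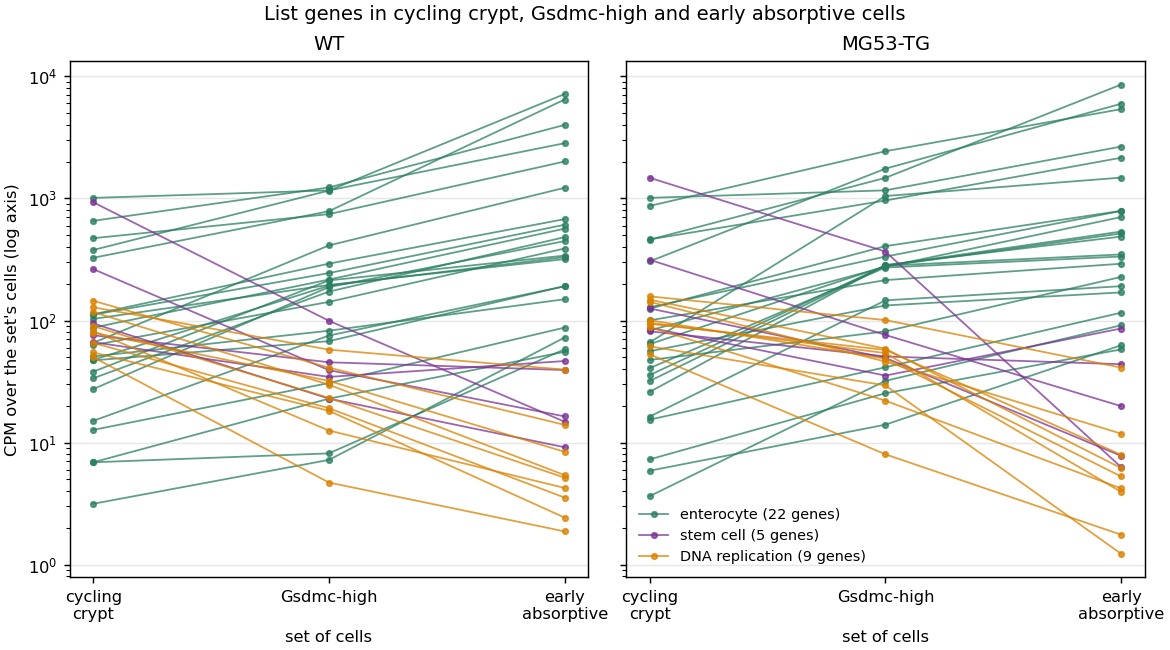
Levels in CPM (log axis, y) of list genes in cycling crypt, Gsdmc-high and early absorptive cells (x), WT left and MG53-TG right; each line is 1 gene, green for 22 enterocyte, purple for 5 stem cell and orange for 9 DNA replication genes. Every green line rises and every orange line falls through the Gsdmc-high cells, whereas 1 purple line (Sox9) turns up again in early absorptive cells.

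At least 2-fold above both neighbouring sets in both libraries were 4 genes, 0.136% of those tested, and 3 of them (Gsdmc4, Gsdmc2 and Fabp6) belong to the rule. The fourth was Mgat4c, whose symbol names a glycosyltransferase. Mgat4c had 134 CPM in the members of both libraries, against 14.3 and 10.6 CPM in cycling crypt cells and 57.9 and 50.4 CPM in early absorptive cells. It was counted in 97 WT and 39 MG53-TG members, with at most 3.99% and 11.9% of its UMIs in 1 cell. By the number of Gsdmc2 and Gsdmc4 UMIs, Mgat4c had 41.8 and 53.7 CPM in counterparts with 0, 69.5 and 108 CPM in cells with 1 or 2, and 134 CPM in members.

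Against early absorptive cells, 52 genes (2.05% of 2532) were at least 2-fold higher and 103 (4.07%) at least 2-fold lower in the members of both libraries. The genes of the rule were left out of this and all later ranks. The highest other genes were Olfm4, Ifitm3, Cd9, Ccnd1, Fgfbp1, Stmn1, Kcne3, Clca3b, Ccdc34 and Csrp2. Ccnd1, the cyclin D1 of the G1 phase, had 233 and 212 CPM in members against 48.4 and 30.2 CPM, and Stmn1, a microtubule regulator of dividing cells, 121 and 198 CPM against 25.5 and 18.1 CPM. Ifitm3, a membrane protein that restricts virus entry, had 125 and 218 CPM against 20.7 and 24.7 CPM. The lowest genes included Matk, Sult6b2, Nrgn, Dclk1, Kctd12 and Rac2. Dclk1 is a defining tuft cell gene, and it was at 115 and 218 CPM in early absorptive cells, which the rule for that set did not clear of tuft cells. Without cells that had at least 3 tuft, enteroendocrine or T cell genes, a step chosen after seeing the data, the lowest 10 were Papss2, Sult6b2, Reg1, Apoc2, Akr1b7, 2210407C18Rik, Mme, Rbp2, Leap2 and Adh6a. Among them Reg1, a secreted lectin, had 53.6 and 146 CPM in members against 1929 and 1812 CPM, and Rbp2, the retinol binding protein of enterocytes, had 1169 and 1504 CPM against 7640 and 9821 CPM.

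Against counterparts without Gsdmc, 16 genes (0.627% of 2550) were higher and 56 (2.2%) lower in both libraries. The highest outside the rule were Ms4a18, Bcl2l15, Car4, Gm3336, Ethe1, Mgat4c, Cdkn2b, Krt8, Krt19 and Cth. Car4, a carbonic anhydrase of the apical membrane, had 268 CPM (250 to 286) in WT and 389 CPM (358 to 421) in MG53-TG members against 85.7 and 80.0 CPM. Bcl2l15, a Bcl2 family member, had 297 and 314 CPM against 94.3 and 97.6 CPM, and Cdkn2b, a cell cycle inhibitor, 131 and 160 CPM against 51.6 and 72.8 CPM. The keratin Krt8 had 4879 and 4035 CPM against 2241 and 1712 CPM. The 3 lowest genes were Igkc, Igha and Jchain, antibody genes of plasma cells, with 1.25 and 0.668 CPM of Jchain in members against 210 and 315 CPM. Next were Saa1, Clca4a, Tmigd1, Selenop, Olfm4, Slc12a2 and Ggt1. Saa1, an acute phase protein, had 4.71 and 1.34 CPM in members against 112 and 77.8 CPM, and Olfm4 had 99.4 and 367 CPM against 1381 and 2390 CPM. Of 21 enterocyte genes measured, 9 were at least 2-fold lower and 0 higher than in counterparts, so these held both crypt base and maturer absorptive expression.

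Against cycling crypt cells, 125 genes (4.56% of 2743) were higher and 166 (6.05%) lower in both libraries, in all 291 or 10.6%. The totals were 155 or 6.12% against early absorptive cells and 72 or 2.82% against counterparts. This order of the totals changed with the setting. With cells thinned to the filter's UMI minimum they were 224 against cycling crypt, 201 against early absorptive and 243 against counterpart cells. The highest outside the rule were Mgat4c, Slc51b, Mep1b, Sis, Krt20, Guca2a, Slc51a, Clec2h, Ms4a18 and Anpep. Slc51a and Slc51b form the transporter that exports bile acids at the basal side. Slc51a had 213 and 266 CPM in members against 39.5 and 35.9 CPM, and Slc51b 96.3 and 175 CPM against 10.3 and 9.06 CPM. Mep1b, a brush border metalloprotease, had 188 and 285 CPM against 27.4 and 26.0 CPM. The lowest outside the rule were Igkc, Hmmr, Hist1h1b, Esco2, Plk1, Prc1, Kif11, Ckap2l, Igha and Knl1, of which all but the antibody genes act in chromatin or cell division. Members had fewer than 5 of the 8 mitosis genes by the rule and cycling crypt cells at least 5, so that difference is partly built into the sets. Mki67, a marker of dividing cells, was still counted in 40 WT and 18 MG53-TG members.

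Of 4 measured small intestine position factors, Onecut2 was at least 2-fold lower in members than in each of the 3 sets in both libraries, beside 4.07%, 2.2% and 6.05% of all genes against early absorptive, counterpart and cycling crypt cells. Osr2 was 2-fold higher only against cycling crypt cells, and Gata6 and Cdx1 were not called against any of them. Osr2, a factor of the distal small intestine, had 85.6 CPM (75.8 to 96.4) in WT and 68.1 CPM (55.5 to 82.7) in MG53-TG members, against 32.7 to 39.7 CPM in cycling crypt, early absorptive and counterpart cells and 120 and 119 CPM in Fabp6-high cells. Onecut2, a factor of the proximal small intestine, had 65.9 CPM (57.3 to 75.4) and 61.4 CPM (49.5 to 75.3) in members, against 134 to 187 CPM in those 3 sets and 8.09 and 6.71 CPM in Fabp6-high cells. Pdx1, a duodenal factor, had 0.314 and 2 CPM in members against 9.10 to 13.7 CPM in the same sets. Fabp6 itself had 80.9 and 94.8 CPM in members although the rule capped it, and 1 cell held 12.4% and 28.9% of these UMIs. Slc10a2, the ileal bile acid importer, had only 3.14 and 11.3 CPM in members, against 453 and 468 CPM in Fabp6-high cells. The list of 16 colonocyte genes summed to 5288 CPM in WT and to 4874 CPM in MG53-TG members, most of it Lypd8, with 5 and 6 of the genes at 0 UMIs. Of 4 measured against cycling crypt cells 3 were at least 2-fold higher (4.56% of all genes were), and of 6 measured against counterparts 1, Car4, was higher and 2 were lower (0.627% and 2.2% of all genes were). Of 4 measured against early absorptive cells 0 were higher and 0 lower (2.05% and 4.07% of all genes were). Cdx2, a factor of the whole intestine listed for colon position, had 80.3 and 84.1 CPM and was not called against any set.

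Other gasdermins and the proteases that cut them were not used by the rule. Gsdmd, the gasdermin cut by inflammatory caspases, had 35.4 CPM (29.2 to 42.6) in WT and 56.7 CPM (45.3 to 70.2) in MG53-TG members, between 13.1 and 12.1 CPM in cycling crypt and 119 and 126 CPM in early absorptive cells. Of 8 genes of the protease and inflammasome list that could be compared with early absorptive cells, 2 were at least 2-fold lower and 0 higher, beside 4.07% and 2.05% of all genes tested. These were Casp6, a caspase, with 101 and 105 CPM against 219 and 256 CPM, and Il18, an epithelial cytokine, with 87.5 and 85.5 CPM against 255 and 287 CPM. Casp8, the initiator caspase known to cut gasdermin C, had 85.6 and 70.1 CPM against 78.3 and 78.8 CPM. Nlrp6, an epithelial inflammasome sensor, had 235 and 247 CPM in members against 236 and 261 CPM. Of the type 2 cytokine genes, the receptor chain Il4ra had 9.7 and 6.01 CPM and Il13ra1 29.5 and 28.7 CPM in members, the factor Stat6 had 47.4 and 58.8 CPM, and Retnlb, a target of the pathway in goblet cells, had 0.314 and 0.668 CPM. Stat6 was at 42.5 and 50.3 CPM in early absorptive cells.

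Ribosomal protein and mitochondrial genes, known by their symbols, and the genes of the rule were left out of this rank. The most abundant other transcripts of members were Reg3b, Gm42418, Lgals4, Tpt1, Fth1, Eef1a1, Reg3g, Lgals2, Malat1 and Krt8. Gm42418 was the highest in MG53-TG, with 13205 and 19510 CPM, and Reg3b, a lectin that attacks bacteria, was at 17579 (WT) and 12531 CPM (MG53-TG). Of 7 genes known from the bottom of the villus, 6 rose in the order from cycling crypt through members to early absorptive cells, while 24.4% of all genes tested did. Reg3g had 6234 and 4591 CPM in members against 2935 and 1257 CPM in cycling crypt and 11497 and 7749 CPM in early absorptive cells. Ccl25, the chemokine that draws lymphocytes to the small intestine, had 761 and 760 CPM in members against 308 and 338 CPM in cycling crypt and 919 and 925 CPM in early absorptive cells. Lypd8, which keeps flagellated bacteria from the surface, had 4650 and 4080 CPM in members, against 2338 and 2052 CPM in cycling crypt and 6179 and 5597 CPM in early absorptive cells.

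The members were not uniform. Clustered without the genes of the rule they fell into 5 subgroups of 52, 51, 43, 36 and 30 cells, described here by their leading genes with no test. The first (39 WT and 13 MG53-TG cells) was led by Reg1, Ces1f and Onecut2, and had Onecut2 at 105 CPM against 51.6 CPM in the rest. The second (48 WT and 3 MG53-TG cells) was led by Reg3b, Tmcc3, Emp1, Reg3g and Sfn, with Reg3b at 32930 CPM against 11496 CPM; it is nearly all of 1 library and may be that library rather than a kind of cell. The third (22 and 21 cells) was led by Clec2e, Slc2a2, Slc15a1 and Sis and had the most absorptive expression, with Sis at 2175 CPM against 186 CPM and Apoa1 at 3704 CPM against 378 CPM. The fourth (24 and 12 cells) was led by Selenom, Cd24a, Snrnp25 and Chga, with Chga, a hormone granule protein, at 127 CPM against 28.1 CPM; 1 cell held 83.2% of its Chga and 98.3% of its Chgb UMIs, and 51.0% of its Dclk1 UMIs were in 1 cell as well. The fifth (17 and 13 cells) was led by Olfm4, Hells, Uhrf1 and the replication genes Mcm3 and Mcm2, with Olfm4 at 1063 CPM against 22.3 CPM.

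The rule bounds the Gsdmc level of every subgroup from below. The summed level of Gsdmc2 and Gsdmc4 was 385, 543, 388, 442 and 259 CPM in the first to the fifth. Gsdmc3 was 29.5, 27.6, 25.7, 39.1 and 31.4 CPM. The cells chosen by the rule included ones with Olfm4 and replication genes and ones with Sis and Apoa1, and they are called Gsdmc-high here rather than by a stage.

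Members were 2.03% (1.72 to 2.37) of WT and 1.20% (0.924 to 1.54) of MG53-TG cells, a ratio of shares of 0.594 (0.434 to 0.803). Counterparts were 10.7% and 7.57%, cycling crypt cells 10.5% and 6.73%, and cells over the goblet limit 29.8% and 42.9%. Before the limits of the rule, 533 WT and 253 MG53-TG cells had at least 3 Gsdmc2 and Gsdmc4 UMIs, of which 28.1% and 24.5% were members. The others were over the Fabp1 limit (136 and 91), cycling (165 and 72), over the Fabp6 limit (78 and 28) or over the goblet limit (64 and 38), and a cell could exceed several. The mitochondrial limit removed 33.7% of WT and 46.1% of MG53-TG barcodes that met the other minimums, and its part in the shares is given with the other settings in the closing section.

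Within the members, 25 of 2622 genes (0.953%) differed at least 2-fold between the libraries, 17 (0.648%) higher and 8 (0.305%) lower in MG53-TG. This split by direction depended on the setting, with 30 higher and 29 lower after thinning to the filter's UMI minimum. The highest 10 by ratio outside the genes of the rule were Pla2g4c, Olfm4, Mthfd2, AA467197, Cd55, Phgdh, Hells, Atf5, Sis and Guca2b. Pla2g4c, a phospholipase, went from 12.5 CPM in WT to 96.8 CPM in MG53-TG, a log2 ratio of 2.95 (2.43 to 3.49). Its log2 ratio was 1.93 in early absorptive and 2.41 in counterpart cells of the same libraries. Olfm4 had 99.4 and 367 CPM, a log2 ratio of 1.88 (1.68 to 2.09), with 39.7% of the WT and 32% of the MG53-TG UMIs in 1 cell each. Sis had 412 and 1047 CPM, a log2 ratio of 1.34 (1.24 to 1.45), and was counted in 122 of 150 and 48 of 62 members.

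The lowest 10 by ratio outside the genes of the rule were Reg4, Chgb, S100a6, AY761184, Chga, Adh1, Gm49980, Ly6e, Plpp5 and S100a11, of which the last 4 did not reach 2-fold. The other 2 of the 8 lower genes were Defa24 and Defa30, Paneth genes that the rule limits. For Reg4 and Chgb, a single WT cell held 93.4% and 92.7% of the UMIs, and without the members that carried at least 3 genes of another cell type (chosen after seeing the data) their log2 ratios went from -4.51 to -0.48 and from -3.86 to 0.13. Chga, with 48.9% of its WT UMIs in 1 cell, likewise went from -1.37 to -0.21. The 8 enteroendocrine genes summed to 163 CPM in WT and to 42.1 CPM in MG53-TG members, and 57 and 34 members had none of them. S100a6, a calcium binding protein, had 134 and 41.4 CPM, a log2 ratio of -1.69 (-2.10 to -1.30), and was spread over 93 WT and 24 MG53-TG members. AY761184, a defensin-family transcript, had 77.8 and 28.7 CPM. The 4 Paneth genes outside the rule summed to 77.8 and 43.4 CPM in the same members, and their part in the AY761184 result was not tested.

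Over all members, absorptive genes were on the side of MG53-TG. Of 21 enterocyte genes measured, 3 (Fabp1, Apoa4 and Apoc3) are limited by the rule. Of the other 18, 18 had a ratio above 0 and 2 (Sis and Apoa1) were at least 2-fold higher, with a median log2 ratio of 0.48 beside 0.04 for all 2622 genes, of which 1498 were above 0 and 0.648% at least 2-fold higher. The median of the same genes was 0.17 in early absorptive, 0.78 in counterpart and 0.01 in cycling crypt cells. With Gsdmc2 and Gsdmc4 asked to be at least 0.02% of UMIs instead of 3 UMIs, 15 of the 18 were above 0, the median was 0.39 and the log2 ratio of Apoa1 went from 1.16 to 0.10. Apoa1 had 786 and 1754 CPM and Fabp2, a fatty acid binding protein, 1230 and 2437 CPM. Slc5a1, the sodium glucose carrier, had 142 and 279 CPM.

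Members of the 2 libraries lay in different subgroups, which were clustered on genes of this kind. The third subgroup, with the most Sis and Apoa1, held 14.7% of WT and 33.9% of MG53-TG members, and the second held 32% and 4.84%. Within the third subgroup 17 of 18 enterocyte genes outside the rule were above 0, with a median of 0.48, beside 44.1% and a median of -0.05 for all 2561 genes measured there, and Sis had 1446 and 2933 CPM. Within the first, the fourth and the fifth subgroup 6 of 18, 8 of 17 and 3 of 10 genes were above 0, with medians of -0.21, -0.10 and -0.28, and in the second, which has 3 MG53-TG cells, 6 of 18 with a median of -0.38. In the first, the second, the fourth and the fifth, 54.9%, 57.1%, 51.1% and 47% of all genes measured were above 0, with medians of 0.04, 0.11, 0.01 and -0.02. The median of the list was thus below 0, and below that of all genes, in these 4 subgroups, each with 3 to 13 MG53-TG cells.

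The Atf4 target list of amino acid stress and synthesis genes was higher as a list, with 7 of 7 measured genes above 0, 2 of them (Atf5 and Phgdh) past 2-fold and a median of 0.63, against 0.80 in early absorptive, 0.69 in counterpart and 0.57 in cycling crypt cells. Over all 2622 genes, 1498 were above 0 and 0.648% were at least 2-fold higher. Phgdh, the first enzyme of serine synthesis, had 20.7 and 61.4 CPM, and Atf5, a stress factor, 31.7 and 88.1 CPM. The MHC class II list, whose proteins present antigen, had 6 of 6 genes above 0 and 0 past 2-fold, beside the same shares of all genes, with a median of 0.40 against -0.12 in early absorptive, 0.12 in counterpart and 0.19 in cycling crypt cells, where 6 of 6 were above 0 as well. H2-Aa had 162 and 234 CPM and Cd74, the invariant chain, 1009 and 1181 CPM. The 3 stem cell genes measured had a median of 0.96 and the 4 DNA replication genes 0.91, with Pcna, the replication clamp, at 57.7 and 101 CPM. The fifth subgroup, with the most Olfm4 and Pcna, held 11.3% of WT and 21.0% of MG53-TG members. Within it Olfm4 had 684 and 1422 CPM and Pcna 193 and 279 CPM. In the first to the fourth subgroup Olfm4 had 17.3, 23.8, 7.77 and 56.7 CPM in WT and 6.45, 0, 2.02 and 45.8 CPM in MG53-TG. These values rest on only 16, 22, 5 and 45 UMIs of both libraries together, so no direction is read from them.

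Other lists had medians nearer 0. Over all 2622 genes the median was 0.04, with 1498 above 0, 0.648% at least 2-fold higher and 0.305% at least 2-fold lower. The protease and inflammasome list had a median of 0.06 over 7 genes, 4 of them above 0 (-0.18 with the 0.02% threshold), and the list of PPAR receptors and targets, a pathway the study asked about, 0.01 over 11 genes, 6 of them above 0 and 0 past 2-fold. The mucosal defence list had a median of -0.10 over 12 genes, 5 above and 7 below 0, with Reg1 past 2-fold higher (74.4% of its MG53-TG UMIs in 1 cell) and Reg4 past 2-fold lower. Reg3b had a log2 ratio of -0.49 (-0.51 to -0.46) and Reg3g of -0.44 (-0.48 to -0.40), and in early absorptive cells these were -0.47 and -0.57. With the 0.02% threshold they were -0.24 and -0.16 in members. The second subgroup, led by both genes, holds 48 WT and 3 MG53-TG members, and in the third and the fourth subgroup Reg3b was higher in MG53-TG, with 19878 and 27501 CPM in the third. The part of the subgroups in the ratio was not tested. Gsdmc4 had a log2 ratio of 0.36 and Gsdmc2 of 0.13 in members, which were chosen on both, and Dmbt1 of -0.39.

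**Figure D4:**
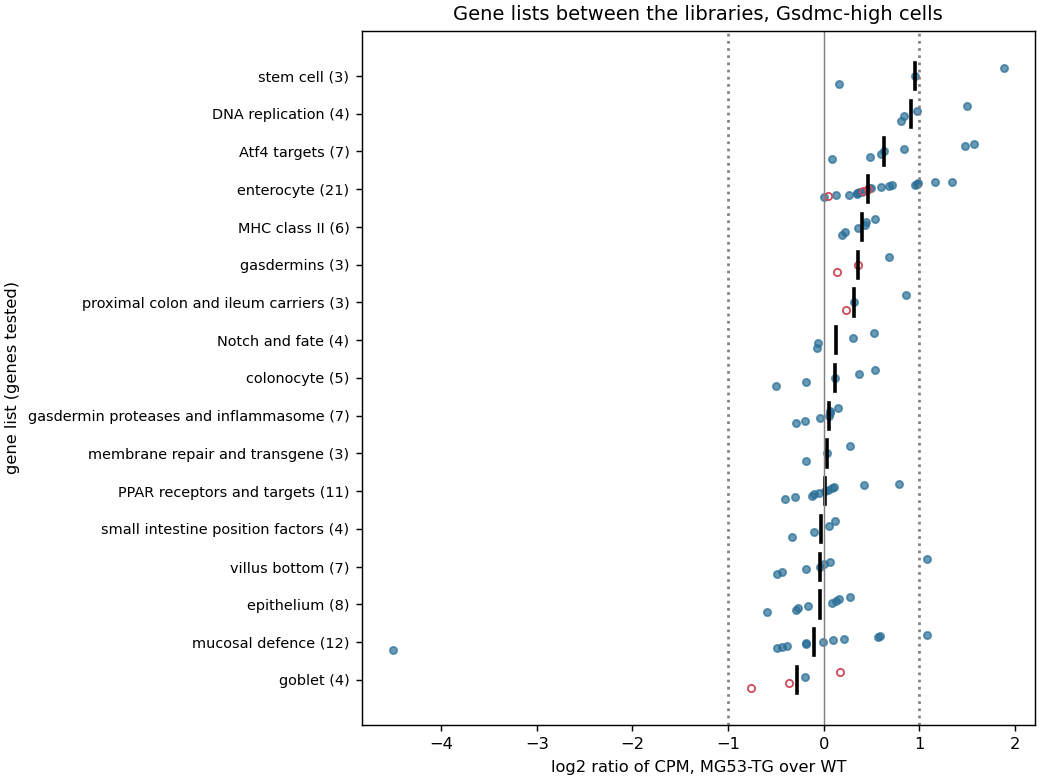
Log2 ratio of CPM, MG53-TG over WT, in Gsdmc-high cells (x) for each gene of the lists with at least 3 measured genes (y, number of genes in parentheses); filled blue points are genes, open red points genes that the rule uses, black bars medians over both and dotted lines the 2-fold limit. Medians run from -0.28 for goblet genes, 3 of 4 of them used by the rule, to 0.96 for stem cell genes, and the 18 filled enterocyte points lie above 0; the point near -4.5 is Reg4, which a single WT cell decides.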

How the data were processed

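In all, 2 single-cell libraries (10x Genomics 3′ kit, version 3), 1 per genotype, were analysed. The authors deposited counts of UMIs per gene and barcode, raw and not scaled, made with Cell Ranger 4 (WT, all barcodes) and 6.0.1 (MG53-TG, lowest barcode 500 UMIs) per the file headers; the submitters' processing notes name the build mm10 and Seurat. The members and gene lists were chosen with earlier results of these data known.

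UMIs were summed over the cells of a set and divided by the set's total (CPM). Differences are log2 ratios of CPM. A gene was tested with at least 30 UMIs in both sides together and 50 CPM in at least 1, and called at 2-fold. Shares have exact Clopper-Pearson, sums exact Poisson and ratios exact conditional binomial intervals. There are 1 library per group, no test and no p-value, because cells are not replicates. Where a UMI count was 0, the limit is 3 counts. Named genes were those of 28 lists, the 10 highest and 10 lowest in each comparison (against other sets, by the smaller ratio of the 2 libraries), the 10 most abundant and leading genes of subgroups. Sex-linked, ribosomal protein and mitochondrial genes and the genes of the rule were left out of ranks.

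Subgroups came from Leiden clustering (scanpy 1.11.5, resolution 0.5, 2000 variable genes without those of the rule, 20 components, 15 neighbours, seed 0). Scrublet's automatic threshold marked 1 WT and 2 MG53-TG cells and had not worked, so the 438 WT and 212 MG53-TG cells of highest score were removed as an alternative; the members reported include 5 and 2 of them. Sequences and positions came from GENCODE vM21 (GRCm38) by Biopython 1.88. The code was tested on simulated counts. Alternatives are in the closing section. Strand use of the counting is not given in the sources used here.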

Additional observations from a re-analysis of the deposited data

Results flagged for a closer look

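In all, 5 genes named between the libraries moved one way in Gsdmc-high cells and the other way in early absorptive cells, with both counting intervals away from 0. With 1 library per genotype the difference between the sets was not tested. Olfm4 had a log2 ratio, MG53-TG over WT, of 1.88 (1.68 to 2.09) in Gsdmc-high and -1.24 (-1.56 to -0.92) in early absorptive cells, and single cells held 39.7% of its WT and 32% of its MG53-TG UMIs. Guca2b, a hormone of the gut lumen, had 1.22 (1.08 to 1.37) and -0.20 (-0.23 to -0.17). Adh1, an alcohol dehydrogenase, had -1.18 (-1.58 to -0.80) and 0.37 (0.33 to 0.41), with 25.8% and 41.2% of UMIs in 1 cell. Plpp5 had -0.93 (-1.45 to -0.43) and 0.24 (0.10 to 0.38). S100a11, a calcium binding protein, had -0.85 (-1.16 to -0.55) and 0.53 (0.46 to 0.60).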

How the results depend on the processing

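The ratio of the shares of Gsdmc-high cells, MG53-TG over WT, stayed below 1 under 8 alternatives, from 0.460 (cells thinned to 5000 UMIs) to 0.583 (without doublets); with a mitochondrial limit of 50% it was 0.499. Without the CPM minimum the counts of genes past 2-fold were 264 between libraries, 790 against early absorptive, 469 against counterparts and 1173 against cycling crypt cells. Thinning to the filter's UMI minimum gave 59 between libraries, 30 higher and 29 lower in MG53-TG, of which 6 were among the original 25. It gave 243 against counterparts and 201 against early absorptive cells, and the mean of single-cell CPM gave 241 and 185. Under both settings the total against counterparts was thus above that against early absorptive cells, unlike in the main setting. Other totals stayed within 1.5 times, but by direction the genes lower in MG53-TG went from 8 to 13 with the 0.02% threshold and to 5 without cells of other types, and those higher than in counterparts from 16 to 26 with the 0.02% threshold. Against cycling crypt cells, thinning took the higher genes from 125 to 67. Median-of-ratios scaling shifted the median gene by 0.12 (WT) and 0.05 (MG53-TG) against early absorptive cells and by 0.12 and 0.10 against counterparts. The number of lists with a median above 0 was 12 of 17 (4 of the 17 hold genes that the rule uses), and 10 to 13 under alternatives; without those genes it was 10 of 14 lists (an alternative chosen after seeing the data). Of 155 alternative log2 ratios of 31 named genes, 130 lay within the counting interval and 24 outside it, and 1 reversed: Chgb, at 0.13 without cells of other types. Unthinned, Gsdmc3 UMIs were in 37.3% of WT and 48.4% of MG53-TG members. Guca2b went from 1.22 to 0.79, Reg3b from -0.49 to -0.24, Reg3g from -0.44 to -0.16, Adh1 to -2.53 and the Gsdmc4 ratio to 0.53 with the 0.02% threshold. The causes were not tested. No paired analysis was possible because each genotype has 1 library, and for the same reason no replicate could be left out. Depth limits genes under 50 CPM and all values resting on the 62 MG53-TG members.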

Other observations

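Barcodes over the mitochondrial limit held few Gsdmc transcripts. Of 3755 such WT barcodes 1 met the rest of the rule (0.0266%, interval 0.000674 to 0.148), and of 4402 MG53-TG barcodes 0 did, which allows up to 0.0682%. Summed Gsdmc2 and Gsdmc4 were 2.52 and 1.80 CPM there, against 42.7 and 34.5 CPM over all cells that passed the filter.

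Duox2, the oxidase of the injured epithelium, had 45.2 and 66.8 CPM in the WT and MG53-TG Gsdmc-high cells, against 19.3 and 17.7 CPM in early absorptive and 158 and 285 CPM in Fabp6-high cells. Pycard, the inflammasome adaptor, had 2174 and 1902 CPM in Gsdmc-high cells against 1303 and 902 CPM in counterparts.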
